A study of Homo sapiens with 6 samples.

Results

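The miR-101 and miR-26 families are the subject here, as miRNAs that repress the message of EZH2. The members were the 6 listed arms hsa-miR-101-3p, hsa-miR-101-5p, hsa-miR-26a-5p, hsa-miR-26a-2-3p, hsa-miR-26b-5p and hsa-miR-26b-3p, found by name among 2576 mature miRNAs in each table. They were chosen with their levels in EV and whole cells already known, so their difference between the groups is given as a description, with no p-value. The samples were cultures of MIO-M1, an established human Müller glial cell line, labelled wild type throughout and grown in DMEM with 10% foetal calf serum to about 80% confluence. The 3 whole cell samples came from passages 22, 24 and 26 and the 3 EV samples from passages 23, 25 and 27, numbered as replicates 1, 2 and 3 by passage. EV are the small membrane vesicles that cells release, collected here from medium by sequential centrifugation. The labels give 5 washes in PBS and 24 h in serum-free medium before collection. The methods of the study give other values for both and name vesicle-depleted medium instead. RNA was isolated with one kit from cells and with another, made for exosomes, from EV, so the kit and the origin of the RNA cannot be told apart. All samples are of 1 line, and the spread between replicates is that between passages of it.

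A miRNA is cut from a hairpin precursor, of which one arm, the guide, is usually kept and the other, the passenger, is mostly lost. The guide pairs with messages mainly through its seed, bases 2 to 8 from the 5′ end. EZH2 is the enzyme of polycomb repressive complex 2 (PRC2) that methylates histone H3 and silences genes, and in the retina it is known for its role in the proliferation of progenitors. miR-101 and both forms of miR-26 are known to bind the EZH2 message and to lower its protein. Messages and proteins were not measured in these samples.

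The mature sequences of the members are printed because their seeds separate the families and their other bases separate the forms of miR-26. They are written 5′ to 3′ from RefSeq on GRCh38.p14, and capitals mark the seed.
hsa-miR-101-3p: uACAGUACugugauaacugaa
hsa-miR-101-5p: cAGUUAUCacagugcugaugcu
hsa-miR-26a-5p: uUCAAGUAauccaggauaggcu
hsa-miR-26b-5p: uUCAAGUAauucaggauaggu
hsa-miR-26b-3p: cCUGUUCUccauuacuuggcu
hsa-miR-26a-2-3p: cCUAUUCUugauuacuuguuuc

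miR-26a-5p and miR-26b-5p carry the same seed, which differs from that of miR-101-3p. They differ by C11U and C21U, where the first base is that of miR-26a-5p and positions are counted from 1 at the 5′ end, and they are 22 and 21 bases long. The same comparison is shown with capitals at the differing bases.
hsa-miR-26a-5p: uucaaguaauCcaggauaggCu
hsa-miR-26b-5p: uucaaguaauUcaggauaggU
A read must reach position 11 to tell these forms apart, and how mismatches were treated in the alignment is not given in the sources used here. Among all listed miRNAs with a RefSeq sequence, miR-1297 and miR-4465 also hold the miR-26 seed, and neither had a count in any library. No other listed miRNA held the full seed of miR-101-3p. miR-144-3p, an erythroid miRNA also known to act on EZH2, is identical to miR-101-3p over its first 7 bases, and the capitals again mark the seed.
hsa-miR-144-3p: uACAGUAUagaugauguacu
It had 18 counts in EV replicate 2 and 0 in the other 5 libraries.

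The members come from 5 loci. In GRCh38.p14, 1 copy of miR-101-3p lies on chromosome 9 from 4850345 to 4850365 on the plus strand, in the precursor MIR101-2. In GENCODE 29 this precursor is intronic in all 5 transcripts of RCL1 that span it, a gene of ribosomal RNA processing on the same strand, and it overlaps an exon of the antisense gene AL158147.1 on the other strand. The featureCounts strand setting of 1 in the header counts sense reads only. miR-101-5p comes from MIR101-1 on chromosome 1, from 65058477 to 65058498 on the minus strand, where no other annotated gene lies. miR-26a-5p has identical copies on chromosome 3, from 37969413 to 37969434 on the plus strand in MIR26A1, and on chromosome 12, from 57824658 to 57824679 on the minus strand in MIR26A2. miR-26a-2-3p is the other arm of the latter, from 57824620 to 57824641. miR-26b-5p and miR-26b-3p lie on chromosome 2, from 218402657 to 218402677 and from 218402692 to 218402712 on the plus strand in MIR26B. The 3 miR-26 precursors are intronic in CTDSPL, CTDSP2 and CTDSP1, related genes for small phosphatases that act on RNA polymerase II. The deposited tables list miR-101-3p and miR-26a-5p at 2 loci each, and the counts do not tell the copies apart. For miR-101-3p the other locus listed is on the minus strand of chromosome 1, beside miR-101-5p.

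Whole cell libraries held between 396025 and 3990900 counts assigned to miRNA, and EV libraries between 1225541 and 3134561. Levels are in CPM, counts scaled to a common library total, so each is a share of a library. Less of a miRNA per vesicle and more of other miRNAs therefore cannot be told apart, nor can fewer vesicles and less RNA in each. Counts of different miRNAs are compared per read and need not equal molecules, because adapters join some ends better than others. Where a miRNA had no count, a level of up to 3 counts could not be told from 0, which is 0.752 to 7.58 CPM for whole cell libraries and 0.957 to 2.45 CPM for EV libraries, and all intervals on counts cover counting error only. Whole cell replicate 1 was the shallowest library, and all 4 members that passed the filter on low values had their highest whole cell CPM there. After scaling, these 4 still had the highest level of the whole cell group there, as had 36.3% of all miRNAs that passed. Of 5 miRNAs fixed as markers of Müller glia, all had counts, and they summed to between 140251 and 142000.1 CPM in whole cells and between 86461 and 112247 CPM in EV. Most of the whole cell sum was miR-125b-5p, with a mean of 110495 CPM in whole cells and 49536 CPM in EV. The markers had no common direction. Mean CPM was lower in EV for miR-125b-5p and miR-204-5p and higher for miR-29a-3p, miR-9-5p and miR-100-5p.

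miR-101-3p, the guide arm of its family, was the member that differed most between EV and whole cells. Its counts in whole cell replicates 1, 2 and 3 were 164, 730 and 271, which is 414, 183 and 216 CPM. In EV replicates 1, 2 and 3 its counts were 3301, 10236 and 14575, which is 2694, 5021 and 4649.8 CPM. The groups did not overlap, and the lowest EV value was that of replicate 1. Whole cells averaged 271 ± 125 CPM (SD, n = 3) and EV 4121 ± 1250.5 CPM (SD, n = 3), a ratio of 15.2. Among all listed miRNAs it ranked 104, 140 and 134 by count in whole cells and 46, 38 and 35 in EV.

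miR-26a-5p and miR-26b-5p, the guide arms that share a seed, were more abundant and showed no such step. The counts of miR-26a-5p were 5585, 31795 and 8839 in whole cells and 11625, 28996 and 18017 in EV. In CPM these were 14103, 7967 and 7059 in whole cells and 9486, 14223 and 5748 in EV. The groups overlapped, with the highest and the lowest of the 6 values both in EV. Its mean for whole cells was 9710 ± 3832 CPM (SD, n = 3) and that for EV 9819 ± 4248 CPM (SD, n = 3).

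For miR-26b-5p the counts were 6865, 28914 and 7192 in whole cells and 6223, 21141 and 30775 in EV. This gave 17335, 7245 and 5744 CPM in whole cells and 5078, 10370.2 and 9818 CPM in EV. The groups overlapped again, and whole cell replicate 1 alone was above the highest EV library. Whole cells had a mean of 10108 ± 6304 CPM (SD, n = 3) and EV one of 8422 ± 2909 CPM (SD, n = 3). Without whole cell replicate 1 the whole cell mean was 6494 CPM, which turns the order of the means. Both arms stood among the 36 most abundant miRNAs of each library, miR-26a-5p at ranks 12 to 30 and miR-26b-5p at ranks 16 to 36.

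The passenger arms were scarce. miR-26b-3p had 6, 34 and 8 counts in whole cells, which is 15.2, 8.52 and 6.39 CPM, and 35, 46 and 167 counts in EV, which is 28.6, 22.6 and 53.3 CPM. All EV libraries lay above all whole cell libraries, but the whole cell values rest on as few as 6 counts. On average it stood at 10.0 ± 4.57 CPM for whole cells and 34.8 ± 16.3 CPM for EV (SD, n = 3 each). miR-26a-2-3p was counted only in EV replicate 1, with 23 counts or 18.8 CPM, and had 0 in the other 5 libraries. The passenger arm of the other miR-26a precursor, miR-26a-1-3p, had 3, 7 and 0 counts in whole cells and 33, 0 and 0 in EV. miR-101-5p had 0 counts in all 6 libraries. These passenger arms of miR-26a thus appeared above 7 counts only in EV replicate 1, and no direction is drawn from them.

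**Figure D1:**
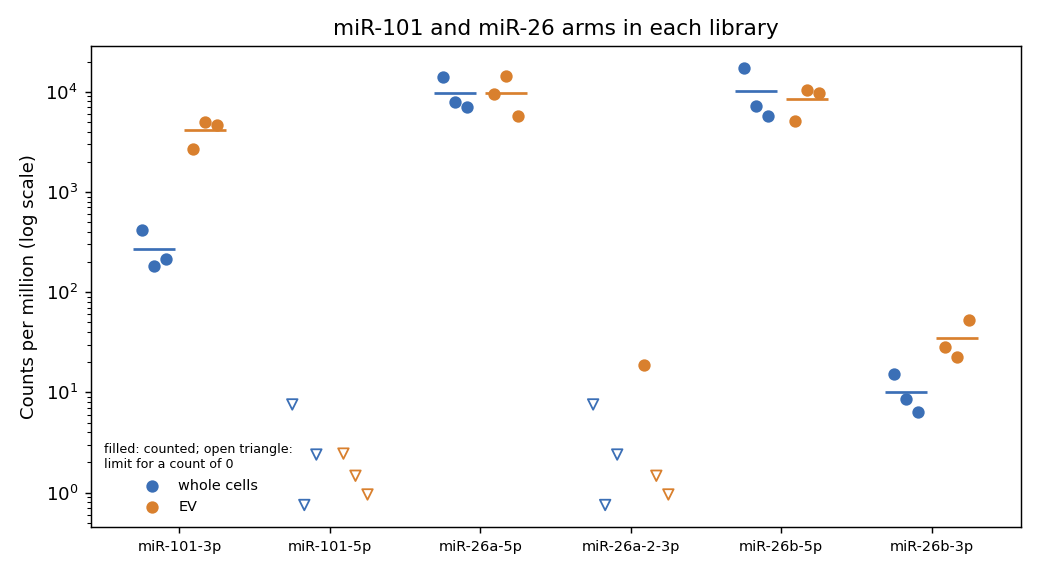
Level of the miR-101 and miR-26 arms in each library, in CPM of the library total on a log axis, with whole cells and EV side by side. Filled points are single libraries with counts. Open triangles are no measured levels but mark the limit of 3 counts where a library had none. Bars mark the mean of a group in which every library had counts. miR-101-3p lies at 183 to 414 CPM in whole cells and at 2694 to 5021 CPM in EV, whereas the ranges of miR-26a-5p and miR-26b-5p overlap between the groups.

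The differences were then estimated in 1 fit over all miRNAs, with edgeR's quasi-likelihood model on counts scaled by TMM, a factor per library that takes out shifts shared by most miRNAs. Of the 2576 miRNAs, 430 reached at least 5 CPM in at least 3 libraries, and 4 of the 6 members were among them. miR-101-5p and miR-26a-2-3p did not pass. A member could pass through its EV libraries alone, as each group holds 3. miR-101-3p had a log2 difference, EV minus whole cells, of 3.97 (SE 0.39, 95% interval 3.05 to 4.89), and 31 of the 430 miRNAs had a larger one. That of miR-26b-3p was 1.91 (SE 1.05, 95% interval -0.54 to 4.36). For miR-26a-5p the difference was 0.03 (SE 0.35, 95% interval -0.80 to 0.85) and for miR-26b-5p -0.20 (SE 0.42, 95% interval -1.17 to 0.78). The intervals of the miR-26 guides hold 0 but also reach a log2 difference of 0.78 or more in size, so equal levels are not shown.

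A miRNA was called at an adjusted p below 0.01 with an absolute log2 difference of at least 2.5. Counted as a description only, 1 of the 4 members met these limits, miR-101-3p, where 5.81% of all tested miRNAs were called in either direction and 4.42% as higher in EV and 1.40% as lower. On the scaled levels 2 of the 4 did not overlap between the groups, miR-101-3p and miR-26b-3p, where 48.4% of all tested miRNAs did not and 20.9% lay above in every EV library. Nothing is read from these counts, since the members were chosen on this contrast. miR-101-3p no longer met these limits without whole cell replicate 3 and without EV replicate 2, with differences between 3.72 and 4.10 over the 6 fits that left out a library. It did not meet them either when the trend with base composition, given below, was taken out.

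**Figure D2:**
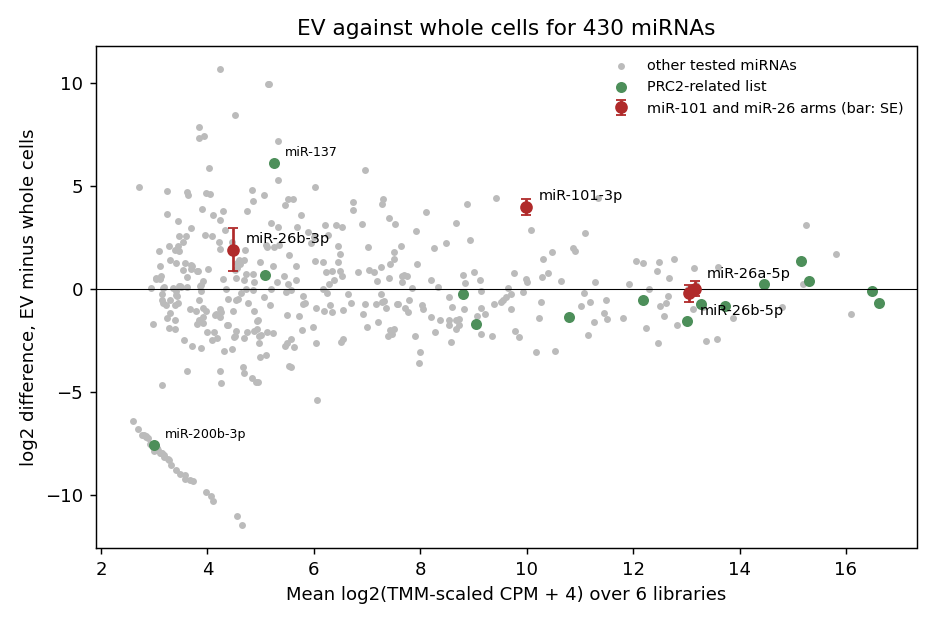
Log2 difference, EV minus whole cells, against the mean log2 level over all libraries, for all 430 tested miRNAs. The 4 arms that passed the filter are named, with bars that give the SE from the edgeR fit. Other miRNAs reported to act on messages of PRC2 subunits are marked in colour. miR-101-3p stands at 3.97 and miR-26a-5p and miR-26b-5p lie near 0, while the median of all tested miRNAs is -0.23.

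Ratios within a library do not depend on how libraries are scaled to each other. Of the reads of the 3 guide arms, miR-101-3p made up 1.30% in whole cell replicate 1 (95% Wilson interval 1.12 to 1.51), 1.19% in replicate 2 (1.11 to 1.28) and 1.66% in replicate 3 (1.48 to 1.87). In EV replicates 1, 2 and 3 it made up 15.6% (15.1 to 16.1), 17.0% (16.7 to 17.3) and 23.001% (22.7 to 23.3). The share was thus higher in every EV library, and the replicates of a group differed far less than the groups. It rests on the same counts on which miR-101-3p was chosen, so it restates that difference and adds no separate support. Per 1000 counts of both miR-26 guides there were 13.2, 12.0 and 16.9 counts of miR-101-3p in whole cells and 185, 204 and 299 in EV. The log2 ratio averaged -6.17 ± 0.25 for whole cells and -2.16 ± 0.37 for EV (SD, n = 3 each), a difference of 4.01 or 16.1-fold.

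The balance of the miR-26 guides moved in no common direction. miR-26b-5p made up 55.1%, 47.6% and 44.9% of the reads of both in whole cells and 34.9%, 42.2% and 63.1% in EV. EV replicates 1 and 3 held the lowest and the highest of the 6 shares. The SD of the log2 ratio was 0.31 in whole cells and 0.87 in EV, and the mean difference of -0.15 was smaller than either. The sum of both guides was 19817 ± 10135 CPM for whole cells and 18241 ± 5524 CPM for EV (SD, n = 3 each), so the level of the shared seed overlapped between the groups as well.

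Guides and passengers were compared in the same way. Per 1000 counts of miR-26b-5p there were 0.874, 1.18 and 1.11 counts of miR-26b-3p in whole cells and 5.62, 2.18 and 5.43 in EV. The ratio was higher in every EV library, by 1.89 on the log2 scale or 3.71-fold. EV replicate 2 was the nearest to whole cells, at a share of 0.217% against 0.117% in whole cell replicate 2. For miR-26a-5p the passengers amounted to 0.537, 0.220 and 0 per 1000 counts in whole cells and 4.82, 0 and 0 in EV. The absence of miR-101-5p limits its ratio to miR-101-3p most in EV. There 3 counts would be 0.909, 0.293 and 0.206 per 1000 in replicates 1, 2 and 3. In whole cells they would be 18.3, 4.11 and 11.1. miR-101-5p is listed on chromosome 1 only, whereas miR-101-3p is listed on chromosomes 1 and 9. These limits thus cover the passenger of MIR101-1 alone, set against guide reads of both precursors.

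**Figure D3:**
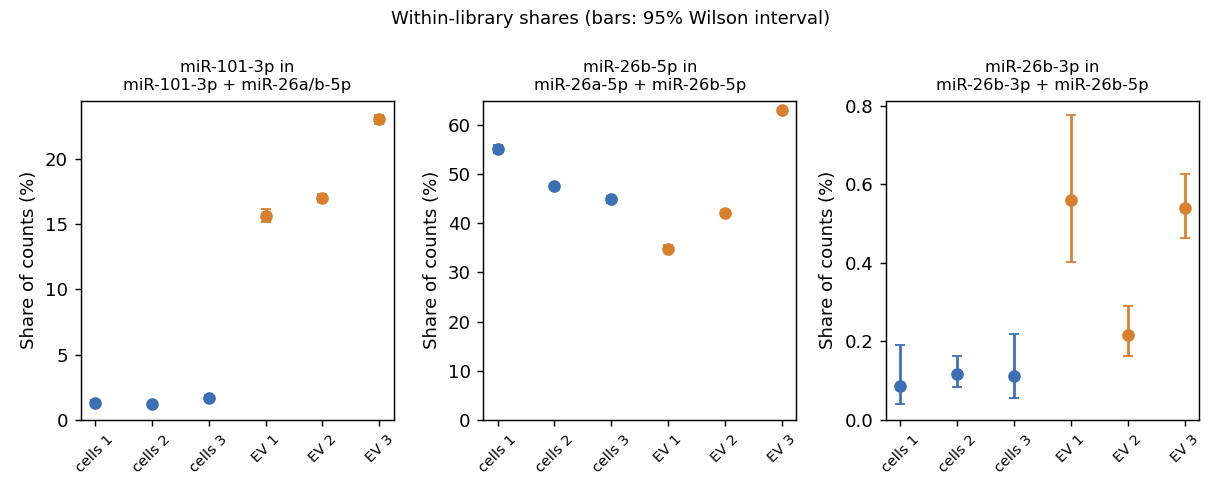
Shares within each library, in percent, of miR-101-3p among the 3 guide arms, of miR-26b-5p among both miR-26 guides and of miR-26b-3p among both arms of miR-26b, with 95% Wilson intervals. The share of miR-101-3p is 1.19 to 1.66% in whole cells and 15.6 to 23.001% in EV, whereas that of miR-26b-5p overlaps between the groups.

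Over the 6 libraries the profiles of the miR-26 guides lay nearer to each other than to that of miR-101-3p, but were hardly correlated. Profiles of log2(scaled CPM + 4) were centred on their means, and the likeness of 2 profiles is given as the root mean square (RMS) distance between them, as a description. miR-26a-5p and miR-26b-5p were 0.54 apart with a Pearson r of 0.10. In order of distance among the other 429 miRNAs, miR-26b-5p was 22nd from miR-26a-5p, and miR-26a-5p was 13th from miR-26b-5p. miR-101-3p was 2.04 from miR-26a-5p and 2.06 from miR-26b-5p, and 1.32 from the passenger miR-26b-3p (r = 0.88). The SD of the log2 level between replicates was 0.40 in whole cells and 0.39 in EV for miR-101-3p. In EV it was 0.50 for miR-26a-5p, 0.47 for miR-26b-5p and 0.71 for miR-26b-3p, where the median of all tested miRNAs was 0.84.

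The profile nearest to that of miR-101-3p was miR-450b-5p, at an RMS distance of 0.26 (r = 0.99). It had 10.1, 8.27 and 7.99 CPM in whole cells and 130, 217 and 213 CPM in EV. miR-376a-3p followed at 0.36 (r = 0.98) and miR-1, a miRNA known from muscle, at 0.42 (r = 0.99). Nearest to miR-26a-5p were miR-494-3p at 0.14 (r = 0.96), miR-30a-5p at 0.24 (r = 0.69) and miR-654-3p at 0.35 (r = 0.34). Those nearest to miR-26b-5p were miR-34a-5p at 0.23 (r = 0.86), miR-152-3p at 0.33 (r = 0.69) and miR-27b-3p at 0.40 (r = 0.64). With 6 libraries in 2 groups, most of the likeness to miR-101-3p is the step between the groups that the choice of miR-101-3p rested on.

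The members also differed in base composition, which the rule for choosing them did not use. G and C made up 33.3% of miR-101-3p and of miR-26b-5p, 40.9% of miR-26a-5p and 47.6% of miR-26b-3p, and the median of the 390 tested miRNAs with a RefSeq sequence was 50.0%. Across these 390 miRNAs, which share the 6 libraries and are not independent, the log2 difference fell with GC content, with a Pearson r of -0.35 and a Spearman rho of -0.42. The median difference was 1.67 in the lowest of 4 bins of GC content (19.0 to 39.1%, 65 miRNAs) and then 0.06 (126 miRNAs), -0.63 (96 miRNAs) and, in the highest bin (56.5 to 90.9%), -1.27. Of the 23 miRNAs with a GC content at or below that of miR-101-3p, the median was 2.05 and 7 had a larger difference than miR-101-3p. miR-26b-5p has the same GC content as miR-101-3p and differed by -0.20.

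**Figure D4:**
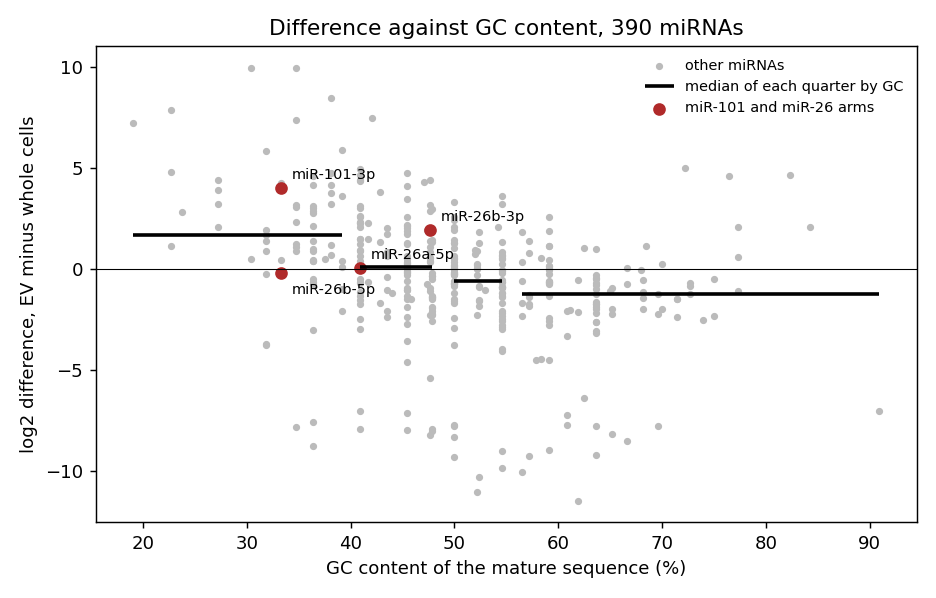
Log2 difference, EV minus whole cells, against the GC content of the mature sequence, in percent, for 390 tested miRNAs, with the medians of 4 bins and the members named. The bin medians run from 1.67 at the lowest GC content to -1.27 at the highest, with miR-101-3p above its bin's median and miR-26b-5p, at the same GC content, below it.

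With a smooth trend on GC content taken out in each library, the log2 difference of miR-101-3p was 1.80 (SE 0.35). Those of miR-26a-5p and miR-26b-5p became -0.92 (SE 0.37) and -2.27 (SE 0.32), and that of miR-26b-3p was 1.92 (SE 0.88). miR-101-3p stayed above miR-26a-5p. It also stayed above miR-26b-5p, but the same trend was taken from both at their shared GC content, so that order was fixed in advance. The part of base composition in the levels was not tested further.

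**Figure D5:**
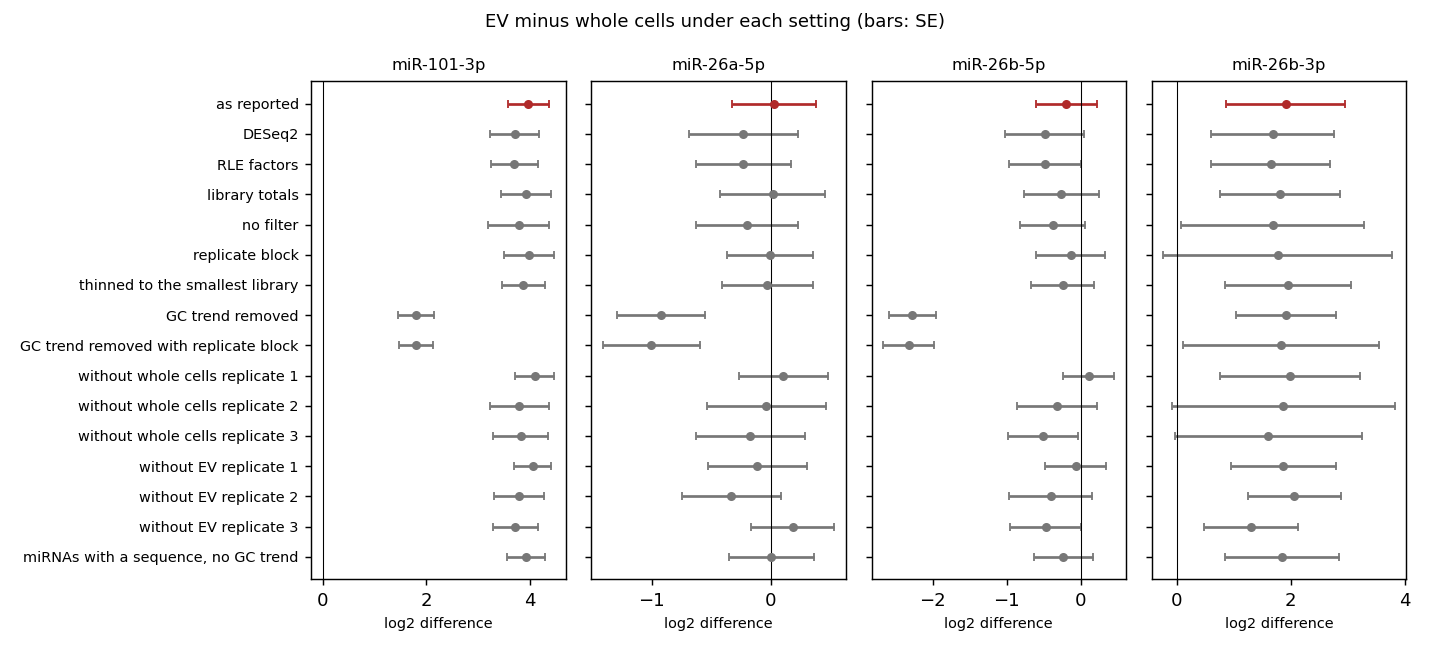
Log2 difference, EV minus whole cells, of the 4 tested arms under each way of processing the counts, including the fits that left out 1 library. miR-101-3p keeps a value between 3.70 and 4.10 except where the GC trend is taken out (1.80), and the miR-26 guides stay between -0.51 and 0.18 except in the same fits, where they lie between -0.92 and -2.32.

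Short motifs linked to the loading of miRNAs into vesicles were searched on the RNA strand of the same 390 sequences, after the values had been seen. GGAG was in 10.5% and CCCU in 10.8% of them, both known as binding motifs of hnRNPA2B1, and neither was in a member. GGCU, known from SYNCRIP, was in 14.4%, and among the members in miR-26a-5p and miR-26b-3p. miRNAs with GGAG had a median difference of -0.05 against -0.33 without it. With CCCU the median was -2.16 against -0.05, and with GGCU -0.83 against -0.17. Sequences with these motifs also held more G and C, with a median of 54.2% with GGAG, 55.5% with CCCU and 54.5% with GGCU, against 47.8% without each. A match of letters shows no binding.

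Other miRNAs reported to act on messages of PRC2 subunits were taken from a list of 20, of which 15 were tested. The list was chosen with earlier results of these data known. Its counts and the p-values of its miRNAs are therefore a description and no independent test. edgeR called 0 of them in either direction, where it called 5.81% of all tested miRNAs. Of the 15, 6 had an unadjusted p below 0.05, where 35.8% of all tested miRNAs had, and DESeq2 called 1 as higher (miR-137) and 0 as lower, where it called 16.7% of all, 9.77% as higher and 6.98% as lower. At an adjusted p below 0.05 without a limit on the fold, edgeR had 2 higher and 3 lower, where 28.6% of all tested miRNAs passed, 14.7% higher and 14.0% lower. The median difference of the 15 was -0.53, beside -0.23 over all tested miRNAs. On the scaled levels 2 of the 15 lay above in every EV library and 5 below, where 20.9% and 27.4% of all tested miRNAs did, and 8 overlapped.

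miR-137, a neuronal miRNA reported to act on EZH2, had the largest difference toward EV in the list. It had 4, 5 and 1 counts in whole cells and 185, 518 and 730 in EV. The log2 difference was 6.11 (SE 1.15, adjusted p = 0.0107 by edgeR, above the limit of 0.01). In whole cells only replicate 1 reached 5 CPM. miR-137 thus passed the filter through its EV libraries, and no support is drawn from the p-value. The whole cell counts are near the floor, so this fold depends on few reads.

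The let-7 family, guides that promote differentiation and are reported to act on EZH2, was tested with all 9 listed members and did not move together. let-7f-5p had a log2 difference of 1.36 (adjusted p = 0.0377 by edgeR), with 34033, 22318 and 16120.4 CPM in whole cells and 66174, 45477 and 63424 CPM in EV. let-7e-5p had one of -1.57 (adjusted p = 0.0213 by edgeR), with 9767, 16011 and 17139 CPM in whole cells and 4981, 4812 and 4965 CPM in EV. That of let-7d-5p was -1.35 (adjusted p = 0.0117 by edgeR), and the other 6 had adjusted p-values from 0.230 to 0.916.

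miR-200b-3p, which acts on the message of the PRC2 subunit SUZ12, had 20.2, 8.02 and 10.4 CPM in whole cells and no count in EV. It passed the filter through whole cells alone, which fixed its place below in every EV library. For the same reason no support is drawn from its adjusted p of 0.0109 by edgeR. Its whole cell counts were 8, 32 and 13. Their mean of 12.9 CPM was 7.92 times the mean EV floor of 1.63 CPM, set at 3 counts a library. Single libraries can give a smaller ratio. Its relative miR-200c-3p was counted in all 6 libraries and overlapped between the groups (log2 difference 0.67, SE 0.99). miR-138-5p had a difference of -1.68 (SE 0.71, adjusted p = 0.137 by edgeR). Of the 5 that were not tested, miR-217 had 1, 9 and 2 counts in whole cells and 0, 0 and 204 in EV.

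Some markers of other cell types were also higher in EV. The 7 listed for blood cells and serum summed to between 172 and 1174 CPM in whole cells and between 1718 and 2341 CPM in EV. miR-486-5p made up most of each sum, at 164 to 1161 CPM in whole cells and 1197 to 1711 CPM in EV, with a log2 difference of 0.78 (adjusted p = 0.487 by edgeR). Of the list, miR-451a and miR-144-3p had no count in whole cells, and 4 of the 7 passed the filter. On the scaled levels these 4 lay above in every EV library, where 20.9% of all tested miRNAs did. Of them 1, miR-142-3p, was called as higher, where 4.42% of all were. It had 0, 0 and 1 counts in whole cells. Both miR-142-3p and miR-451a passed the filter through EV libraries alone, which fixed their place above. Among those that did not pass, miR-144-3p had 0, 18 and 0 counts in EV, miR-150-5p 0, 47 and 0, and miR-223-3p 31, 85 and 0. Nothing is read from these counts of markers. The erythroid miR-451a averaged 99.9 CPM and miR-142-3p of leukocytes 306 CPM in EV, beside 4121 CPM of miR-101-3p. The 3 photoreceptor markers summed to between 227 and 333 CPM in whole cells and between 1151 and 1218 CPM in EV, with 2 of the 3 above in every EV library on the scaled levels, beside the same 20.9%. miR-124-3p, the marker of neurons, had 0 counts in every library, and miR-211-5p of pigment epithelium averaged 0.418 CPM in whole cells and 0.106 CPM in EV. For the blood and photoreceptor markers, their part in the result was not tested.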

How the data were processed

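Small RNA from 3 whole cell and 3 EV samples of MIO-M1 cells was sequenced, with groups taken from the labels. The authors trimmed and aligned the reads and deposited, per library, the raw count of reads on each mature miRNA. The file headers name featureCounts 1.5.0-p1 with strand setting 1, miRBase 20 and Bowtie 1, whereas the methods name another aligner and release, and the header names no genome build. No step that removes copies of a starting molecule is stated, so amplification may inflate counts.

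CPM used the column total. miRNAs that reached 5 CPM in 3 or more libraries were fitted with edgeR 4.0.16 (quasi-likelihood, TMM, R 4.3.3) with Benjamini-Hochberg adjustment over all 430. DESeq2 1.42.0, the study's tool, was an alternative, as were other scalings, filters, thinning, thresholds, a replicate block, a GC trend and each library left out. A fit of the miRNAs with a sequence but no GC trend and the motif search were added after seeing the data. Ratios of counts had 0.5 added to each. The fits were tested on simulated data. Residuals of libraries with the same replicate number had correlations of 0.0204, 0.0395 and -0.0172.

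Members, lists, markers and tests were chosen with earlier results of these data known. Named miRNAs are the members, their other arms and seed relatives, the PRC2 list, the 3 nearest profiles to each guide and the markers. RefSeq gave a mature sequence for 2262 of the 2576 listed miRNAs and for 390 of the 430 tested, and 13 of the 15 PRC2 miRNAs tested.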

Additional observations from a re-analysis of the deposited data

How the results depend on the processing

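miR-101-3p kept its direction under every alternative, and the direction of miR-26a-5p, near 0, changed with the scaling (-0.23 with DESeq2 size factors, which moved the median of all miRNAs by -0.18). With the GC trend removed, log2 differences were 1.80 for miR-101-3p, -0.92 for miR-26a-5p and -2.27 for miR-26b-5p, and with a replicate block as well 1.80, -1.003 and -2.32. The same 390 miRNAs without that trend gave 3.93, 0.00 and -0.24. Leaving out each library gave 3.72 to 4.10 for miR-101-3p, -0.33 to 0.18 for miR-26a-5p, -0.51 to 0.11 for miR-26b-5p and 1.31 to 2.06 for miR-26b-3p. Of all tested miRNAs, 19 were called higher and 6 lower in EV. These counts were 42 and 30 with DESeq2, 5 and 3 without the GC trend, 2 and 1 without it and with the block, 51 and 42 at an adjusted p below 0.05, and 63 and 60 without the fold limit. Lower calls were 10 with RLE factors, 16 on library totals and 22 with no filter. Leaving out each library gave 0 to 22 higher and 0 to 9 lower calls. There were none in either direction by edgeR without whole cell replicate 3 (121 at an unadjusted p below 0.05) or EV replicate 2 (169). The replicate numbers mark no shared culture, and a replicate block alone gave 13 higher and 5 lower calls with miR-101-3p still meeting the limits. For the PRC2 list, 1 was called higher with DESeq2, no filter, thinning and an adjusted p below 0.05, and 2 with no fold limit, while lower calls were 1 and 3 under the latter pair. Leaving out each library gave 0 to 1 higher and 0 lower, with the 1 called without whole cell replicate 1, and medians from -0.84 to -0.49, and the median was -1.11 without the GC trend and -1.09 with the block as well. Ranking profiles by Pearson r kept 1, 1 and 0 of the 3 nearest miRNAs named for miR-101-3p, miR-26a-5p and miR-26b-5p. The cause of these changes was not tested. Other values, 176 in number, moved by less than the spread between replicates or stayed within 1.5 times the count. With 3 libraries a group and as few as 1 to 8 counts behind some values, the passenger arms and miR-137 in whole cells are limited by depth.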
